A study of Mus musculus with 32 samples.

Results

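Satellite cells of muscle and its fibro-adipogenic progenitors (FAPs) were compared in mouse supraspinatus, a rotator cuff muscle, at day 7 after injury and transplantation of brown adipose tissue (BAT). The libraries were taken by their labels and by no measured value. There were 4 satellite cell libraries and 4 FAP libraries, 8 of the 32 libraries of the series, with 1 library of each cell type from each of 4 mice. Per the labels, the recipients were wild-type (WT) male C57BL/6J mice of 12 weeks, the muscle was injured with cardiotoxin, a venom toxin that kills muscle fibres, and the graft was interscapular BAT of mice of 3 weeks. Both cell types therefore share the injury and the graft, and the comparison between them is no measure of either. The sort kept CD45- and CD31- cells, a gate meant to leave out leukocytes and endothelial cells. It took Sca1+ cells with integrin alpha 7 as satellite cells and without it as FAPs. RNA came from sorted cells in bulk, with 10 ng of total RNA per library and an RNA integrity number above 8 per the labels, and was copied with a low-input cDNA kit. For comparison, the same pair of cell types was taken from control muscle of the same mice, which had cardiotoxin and no graft (8 libraries), and from BAT muscle of other mice at day 3 (8 libraries).

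Satellite cells are the stem cells of skeletal muscle. They lie between the muscle fibre and its basement membrane, carry the transcription factor Pax7, and after injury divide, switch on Myf5, Myod1 and then Myog, and fuse into new fibres. FAPs are interstitial mesenchymal cells marked by Pdgfra and Sca1 (the product of Ly6a). In regenerating muscle they are known to lay down matrix and to secrete growth factors, chemokines and complement proteins that act on satellite cells and leukocytes, and they can give rise to fibroblasts and fat cells.

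Total counts ranged from 22931865 to 25136483 in satellite cell libraries and from 22011188 to 29648119 in FAP libraries, and 22147 to 24000 genes had a count in satellite cells, against 22139 to 23423 in FAPs. A count of 0 in a single library allows a level of up to 0.136 CPM (counts scaled to a common library total) in the shallowest of the 8 (3 counts of the total). Floors and counting intervals cover counting error only. The first principal component of log2 CPM, which separated the cell types, held 68.2% of the variance. The second, with 10.4%, set both libraries of the mouse of replicate 3 apart (-54.2 and -80.7, against 17.3 to 28.8 in the other 6). Those libraries also go against their label: Xist, which is transcribed from the inactive X chromosome of females, was at 301 and 163 CPM, and Ddx3y on the Y chromosome had no count, in a mouse labelled male. In the other 6 libraries Xist was at no more than 0.129 CPM and Ddx3y at 49.1 to 108 CPM. Counts of a list are also given without them where a count or median moved by over 1.5 times.

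Itga7, a gene of the gates, and the markers Pax7 and Pdgfra followed the labels in all 4 mice, which for Itga7 checks the sort. Ly6a, which encodes Sca1, was low in satellite cells and so went against the label of their gate. Values of Itga7 and Ly6a are tied to the sort and are no finding. Levels are CPM with TMM scaling within the 8 libraries, and values of 4 libraries are always given in the order of replicates 1 to 4, so that a position marks a mouse at day 7. Pax7 had 71.8, 122, 46.2 and 95.2 CPM in satellite cells, against 0, 0, 0.366 and 0 CPM in FAPs, a fitted log2 difference (satellite cells minus FAPs) of 9.83 ± 0.66 (SE, edgeR adjusted p = 2.86e-05). Itga7, the integrin of the gate, had 514, 694, 347 and 404 CPM in satellite cells, against 5.54, 7.86, 18.8 and 4.34 CPM in FAPs (log2 difference 5.94 ± 0.46, edgeR adjusted p = 5.15e-05). The highest FAP value of both genes was that of replicate 3, and no FAP library reached any satellite cell library. Pdgfra had 1.89, 1.96, 1.39 and 1.05 CPM in satellite cells, against 337, 361, 370.2 and 285 CPM in FAPs (log2 difference -7.76 ± 0.18, edgeR adjusted p = 3.21e-06). Ly6a had 5, 5.4, 9.37 and 4.16 CPM in satellite cells, against 810.2, 813, 491 and 655 CPM in FAPs (log2 difference -6.89 ± 0.34, edgeR adjusted p = 8.26e-06). All FAP libraries were far above all satellite cell libraries for both, although the labels call both gates Sca1+. In bulk libraries, fewer cells of a type and less RNA per cell cannot be told apart.

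**Figure D1:**
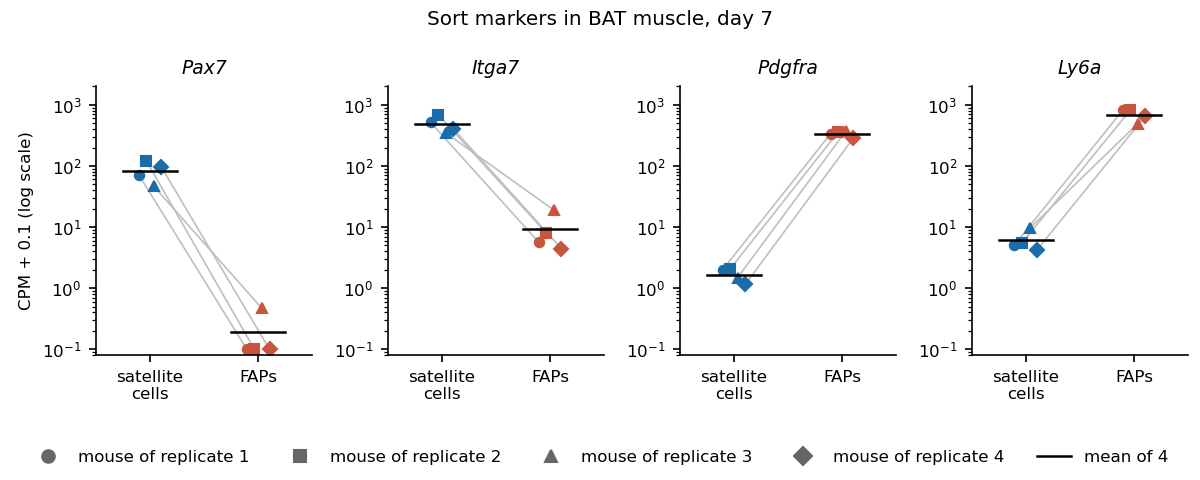
Levels of the 4 marker genes (vertical axis, CPM + 0.1 on a log scale) in satellite cells and FAPs of BAT muscle at day 7, 1 symbol per library, with grey lines joining the libraries of a mouse and black bars for the mean of 4. Pax7 and Itga7 are higher in the satellite cell library of every mouse, and Pdgfra and Ly6a are higher in the FAP library of every mouse.

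The difference between the cell types reached across much of the transcriptome. Of 18162 genes tested, 4202 (23.1%) were called higher in satellite cells than in FAPs and 4393 (24.2%) lower, together 47.3%, with edgeR's quasi-likelihood test blocked by mouse and a Benjamini-Hochberg adjusted p under 0.05. The median log2 difference of all genes was 0.04. In 3569 genes (19.7%) every satellite cell library was above every FAP library, and in 3503 (19.3%) every FAP library was above every satellite cell library. Library totals alone, with no scaling factor, moved the median of all genes to 0.48 and the counts to 7477 higher and 2756 lower, so that small differences depend on the scaling. Without the mouse of replicate 3 the counts were 4191 and 4534.

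Among genes with at least 20 CPM in the higher cell type and no overlap between libraries, the 12 largest differences toward satellite cells were led by myogenic genes. Among them were Pax7, Fndc3c1, Myf5, Iqsec3, Fgfr4, Myog, Prkcq, Mgl2, Myod1, Dcx and Cdh15, with log2 differences of 8.31 to 9.83. Myf5, a determination factor of the myogenic lineage, had 282, 704, 397 and 529 CPM in satellite cells, against 0.147, 0.181, 5.6 and 0 CPM in FAPs (log2 difference 9.22 ± 1.05, edgeR adjusted p = 0.000322). Fndc3c1, an X-linked fibronectin type III domain gene, had 26.8, 21.4, 29.2 and 18.8 CPM in satellite cells, against 0, 0, 0.105 and 0 CPM in FAPs. With 2 counts in all FAP libraries together, its ratio was 1005 with a 95% interval of 278 to 8301. Dcx, a microtubule-binding protein best known from migrating neurons, had 44.7, 33.6, 41.9 and 42.1 CPM in satellite cells, against 0.245, 0, 0.209 and 0.0462 CPM in FAPs (log2 difference 8.36 ± 0.40, edgeR adjusted p = 8.02e-06). Mgl2, a lectin best known from macrophages and dendritic cells, had 22.1, 15.2, 25.6 and 29.7 CPM in satellite cells, against 0.245, 0, 0 and 0 CPM in FAPs. Iqsec3, an exchange factor for ARF proteins, had 151, 161, 108 and 133 CPM in satellite cells, against 0, 0.497, 0.785 and 0 CPM in FAPs. Satellite cell libraries held at least 15.2 CPM of Myf5, Fndc3c1, Dcx, Mgl2 and Iqsec3, and FAP libraries no more than 0.785 CPM except for Myf5 in replicate 3.

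The 12 largest differences toward FAPs were C3, Cpz, Clec3b, Kcnj15, Pdgfra, Gdf10, Brinp3, Cfb, Pi16, Ccbe1, Tnn and Ly6a, with log2 differences of -9.55 to -6.89. C3, the central complement component, had 0.536, 1.85, 8.25 and 0.217 CPM in satellite cells, against 917, 1381, 2353 and 534 CPM in FAPs (log2 difference -9.55 ± 0.53, edgeR adjusted p = 1.31e-05). Cpz, a secreted carboxypeptidase that binds Wnt proteins, had 0.143, 0.109, 0.0348 and 0 CPM in satellite cells, against 27.6, 39.5, 71.3 and 32.1 CPM in FAPs. Clec3b, which encodes the plasminogen-binding protein tetranectin, had 0.321, 0.58, 0 and 0.253 CPM in satellite cells, against 214, 142, 23 and 243 CPM in FAPs, lowest in replicate 3 in both cell types. Ccbe1, a secreted factor needed to process the lymphatic growth factor VEGF-C, had 0.428, 0.181, 0 and 0.289 CPM in satellite cells, against 30.1, 37.4, 34.8 and 38 CPM in FAPs. Kcnj15, a potassium channel, had 0.0714, 0.254, 0 and 0 CPM in satellite cells, against 7.75, 15.2, 94.2 and 6.65 CPM in FAPs. Brinp3, best known from the nervous system, had 0.178, 0.145, 0.522 and 0.361 CPM in satellite cells, against 19.7, 44.9, 197 and 33.9 CPM in FAPs. Their FAP libraries lay far above every satellite cell library, and replicate 3 was the highest FAP library for Cpz, Kcnj15 and Brinp3.

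**Figure D2:**
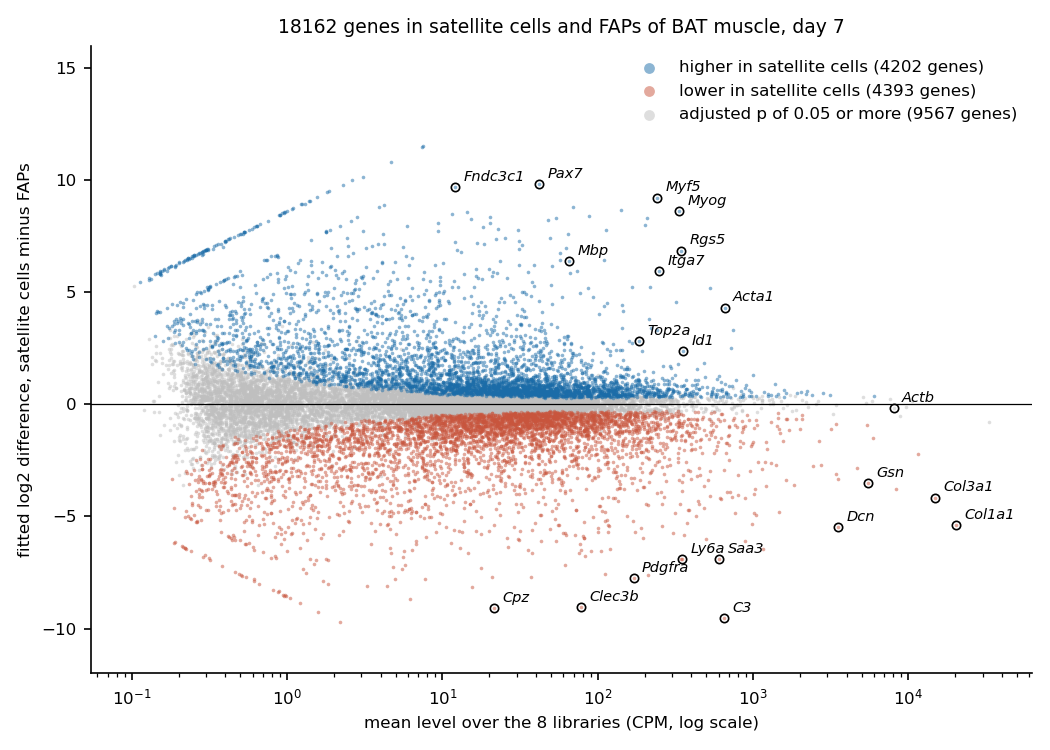
Fitted log2 difference, satellite cells minus FAPs (vertical axis), against the mean level over the 8 libraries (CPM, log scale) for 18162 genes, in blue where called higher, in red where called lower and in grey otherwise. Pax7, Myf5 and Myog stand near the top and C3, Clec3b and Pdgfra near the bottom, while Actb, among the most abundant genes, lies close to 0.

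Satellite cell identity genes were called higher in 20 of 24 tested and lower in 1 (median log2 difference 4.41). The list includes Itga7, a gene of the gates, whose call is no finding. Pax3, the paralogue of Pax7, had 14.1, 20.3, 11.2 and 14.2 CPM in satellite cells, against 0, 0, 0 and 0 CPM in FAPs. Calcr, which encodes the receptor for calcitonin and is known from resting satellite cells, had 16.1, 8.84, 10.9 and 23 CPM in satellite cells, against 0, 0, 0 and 0 CPM in FAPs. With no count in any FAP library they were at least 414-fold and at least 408-fold higher in satellite cells (floor of 3 counts over the 4 FAP libraries). Cd82, a tetraspanin of myogenic stem cells, had 965, 1226, 902 and 1023 CPM in satellite cells, against 27.2, 32.3, 41.5 and 17 CPM in FAPs (log2 difference 5.18 ± 0.26, edgeR adjusted p = 8.22e-06), with no overlap. The member called lower was Sdc3, a syndecan reported on satellite cells, with 30.5, 48.5, 28.7 and 31 CPM in satellite cells, against 53.2, 91.9, 54.5 and 65.4 CPM in FAPs (log2 difference -0.93 ± 0.11, edgeR adjusted p = 0.000371). Neither Vcam1, an adhesion molecule, nor the syndecan Sdc4, both used to describe satellite cells, was called. Vcam1 had 819, 796, 999.5 and 862 CPM in satellite cells, against 371, 816, 1059 and 223 CPM in FAPs. Sdc4 had 512, 734, 422 and 469 CPM in satellite cells, against 493, 477, 794 and 245 CPM in FAPs. Both overlapped, and for Vcam1 the FAP library of replicates 2 and 3 was above the satellite cell library of its mouse. Without the mouse of replicate 3, 23 of the 24 were called higher.

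Notch signalling, which is known to hold satellite cells in quiescence, lay mostly on the satellite cell side: 11 of 20 members were called higher and 1 lower (median 1.69). Among receptors, Notch3 had 94.3, 118, 70.5 and 87.6 CPM in satellite cells, against 6.96, 6.24, 10 and 7.48 CPM in FAPs (log2 difference 3.59 ± 0.23, edgeR adjusted p = 2.61e-05). Notch1 had 51.7, 98.4, 25.2 and 47.5 CPM in satellite cells, against 17.1, 21.3, 12.2 and 18.7 CPM in FAPs (log2 difference 1.55 ± 0.20, edgeR adjusted p = 0.000519). Neither overlapped, while Notch2 did, with 85.6, 141, 72.2 and 109 CPM in satellite cells, against 91.5, 99, 85.5 and 83.8 CPM in FAPs. Of the ligands, Dll1 had 31.4, 33.3, 28.8 and 26.6 CPM in satellite cells, against 0.833, 1.22, 2.83 and 0.969 CPM in FAPs (log2 difference 4.47 ± 0.32, edgeR adjusted p = 3.96e-05). Jag1 was the member called lower, with 45.9, 85, 42 and 50.5 CPM in satellite cells, against 59.1, 145, 62.6 and 50.5 CPM in FAPs (log2 difference -0.43 ± 0.14, edgeR adjusted p = 0.043). Its libraries overlapped, and its value was 0.0155 under library totals alone. It was no longer called there, under upper quartile scaling, with no replicate block, or without the mouse of replicate 1, 2 or 3. The target Heyl had 309, 713, 195 and 393 CPM in satellite cells, against 33.9, 68.5, 13.2 and 46.1 CPM in FAPs (log2 difference 3.38 ± 0.16, edgeR adjusted p = 7.94e-06). Hes1, which many pathways switch on, had 59.2, 129, 31.4 and 75.9 CPM in satellite cells, against 48.9, 97, 39.95 and 48.6 CPM in FAPs and was not called. Notch3 and Heyl are also known from pericytes, whose summed markers lay on the same side (2672 to 3941 CPM in satellite cells and 581 to 1000.4 CPM in FAPs). That sum holds Notch3 itself and the muscle gene Des (611 ± 150 CPM in satellite cells, mean ± SD), so it does not measure pericytes alone. The part of such cells in these differences was not tested.

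Differentiation genes were high in the satellite cell libraries as well. Of 18 myogenic regulators and fusion genes, 15 were called higher and none lower (median 2.12). Myod1 had 174, 199, 161 and 163 CPM in satellite cells, against 0, 0.226, 2.3 and 0.0923 CPM in FAPs (log2 difference 8.40 ± 0.76, edgeR adjusted p = 0.000102). Myog, which marks cells committed to differentiate, had 482, 613, 916 and 646 CPM in satellite cells, against 0.147, 1.58, 11.3 and 0.323 CPM in FAPs (log2 difference 8.62 ± 0.81, edgeR adjusted p = 0.00013). All satellite cell libraries lay above all FAP libraries, and the FAP library of replicate 3 again held the most. The fusion protein gene Mymk had 28.2, 44.2, 67 and 41.8 CPM in satellite cells, against 0.147, 0.316, 0.157 and 0.139 CPM in FAPs, and Mymx, its partner, had 17.2, 21.9, 33.8 and 25.7 CPM in satellite cells, against 0.098, 0.407, 0.105 and 0.185 CPM in FAPs, with no overlap either. Mef2a and Mef2d, broadly expressed partners of the myogenic factors, were not called (0.41 ± 0.18 and -0.27 ± 0.13 on the log2 scale). Of 21 developmental and shared sarcomere genes, 20 were called higher (median 4.54), and of 16 genes of mature fast fibres 15 (median 4.42). Acta1, the skeletal muscle actin, had 687, 1976, 589.9 and 1741 CPM in satellite cells, against 72.1, 88.5, 21.5 and 66.9 CPM in FAPs (log2 difference 4.31 ± 0.28, edgeR adjusted p = 2.65e-05). Ckm, the muscle creatine kinase, had 133, 497, 101 and 369.6 CPM in satellite cells, against 21.6, 18.7, 2.83 and 18.8 CPM in FAPs (log2 difference 4.18 ± 0.41, edgeR adjusted p = 0.000153). In satellite cells both were high in replicates 2 and 4 and lower in replicates 1 and 3, and in FAPs replicate 3 was lowest.

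The same held for the neuromuscular junction, the synapse between motor nerve and fibre, whose receptor subunits immature muscle cells are known to make before they are innervated. Of 11 members 9 were called higher and none lower (median 4.77). Chrna1, the alpha subunit of the muscle acetylcholine receptor, had 327, 446, 407 and 424 CPM in satellite cells, against 0.588, 0.904, 8.12 and 0.6 CPM in FAPs (log2 difference 7.98 ± 0.70, edgeR adjusted p = 9.05e-05). Chrng, the embryonic gamma subunit, had 17.9, 33.5, 20.8 and 31.8 CPM in satellite cells, against 0, 0.226, 0.785 and 0 CPM in FAPs (log2 difference 6.80 ± 0.69, edgeR adjusted p = 0.000186). Neither overlapped. The 2 members not called encode the nerve-derived organiser agrin (Agrn, 0.45 ± 0.21 on the log2 scale) and its receptor Lrp4 (-0.30 ± 0.17). Promoters of both receptor subunits are shown because both genes were higher together with Myod1 and Myog, whose products are known to bind the E box CAGCTG. The windows run from 250 bases before to 50 bases after the gene's start, from RefSeq on build GRCm38.p6, and the capitals mark CAGCTG, which reads the same on both strands. Chrna1 lies at chr2:73580289-73580588, minus strand, and Chrng at chr1:87205561-87205860, plus strand.
Chrna1: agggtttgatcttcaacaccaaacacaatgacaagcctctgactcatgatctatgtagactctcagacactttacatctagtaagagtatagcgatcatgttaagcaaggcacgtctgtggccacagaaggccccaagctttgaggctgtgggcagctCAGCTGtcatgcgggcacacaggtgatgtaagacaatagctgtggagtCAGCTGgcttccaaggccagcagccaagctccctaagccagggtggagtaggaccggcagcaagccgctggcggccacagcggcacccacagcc
Chrng: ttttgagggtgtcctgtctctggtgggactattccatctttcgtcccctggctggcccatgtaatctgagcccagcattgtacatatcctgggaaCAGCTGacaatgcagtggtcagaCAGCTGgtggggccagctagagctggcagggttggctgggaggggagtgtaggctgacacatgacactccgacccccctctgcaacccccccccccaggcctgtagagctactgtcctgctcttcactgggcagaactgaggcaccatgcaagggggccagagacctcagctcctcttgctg
In Chrna1 the motif began 92 and 44 bases before the start, and in Chrng 155 and 132 bases before it. It was found in 4 of the 8 neuromuscular junction genes with a window and in 18.3% of the 27025 genes with one. Of other lists on the satellite cell side, 7 of 19 developmental and shared sarcomere genes and 4 of 34 cell cycle genes held it. On the FAP side it was in 6 of 15 chemokine and cytokine genes and 2 of 11 fibrillar and fibril-associated collagen genes. Among genes with a window, the share was 18.6% of those called higher and 20.7% of those called lower. A match is a description of letters and not a measured site.

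FAP identity genes were called lower in satellite cells in 23 of 23 tested (median -4.71). The list includes Ly6a, a gene of the gates, whose call is no finding. Dcn, the proteoglycan decorin, had 162, 151, 123 and 173 CPM in satellite cells, against 9182, 5028, 5656 and 7667 CPM in FAPs (log2 difference -5.47 ± 0.18, edgeR adjusted p = 3.46e-06). Gsn, the actin-severing protein gelsolin, had 767, 1003, 472 and 745 CPM in satellite cells, against 15769, 13114, 2012 and 10271 CPM in FAPs (log2 difference -3.51 ± 0.36, edgeR adjusted p = 0.000204). Groups did not overlap for either, but the FAP library of replicate 3 was far below the other FAP libraries for Gsn. The same library was also lowest among FAPs for Pi16 (331, 242, 63.6 and 255 CPM), a peptidase inhibitor that marks adventitial progenitors, for Cd34 (1028, 872, 273 and 764 CPM), a sialomucin of progenitors, and for the growth factor Gdf10 (44.7, 41.8, 7.07 and 72.1 CPM). Mfap5, a microfibril protein of the same fibroblast state, had 27.7 ± 12.1 CPM in satellite cells and 1739.9 ± 509 CPM in FAPs (mean ± SD, n = 4 each). All 23 were again called lower without that mouse.

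Collagens and other matrix genes were lower in satellite cells almost throughout. Of 15 fibrillar and fibril-associated collagen genes 14 were called lower in satellite cells (median -2.77), and of 30 genes of matrix organisation and remodelling 29 (median -3.09). None in either list was called higher. Col1a1 had 1231, 1439, 465 and 617 CPM in satellite cells, against 27701, 75726, 22306 and 32321 CPM in FAPs (log2 difference -5.38 ± 0.26, edgeR adjusted p = 8.06e-06). Col3a1 had 1852, 1873, 1138 and 1535 CPM in satellite cells, against 24540.3, 26977, 33822 and 27700.1 CPM in FAPs (log2 difference -4.16 ± 0.23, edgeR adjusted p = 1.19e-05). Groups were far apart, with FAP replicate 2 well above the other FAP libraries for Col1a1, and satellite cell libraries still held 465 to 1873 CPM of these chains. Sparc, a collagen-binding matricellular protein, had 4034, 5764, 2660.5 and 4257 CPM in satellite cells, against 15969, 22927, 19521 and 16608 CPM in FAPs. Postn (periostin) had 850.5, 601, 467 and 716 CPM in satellite cells, against 6754, 5951, 5515 and 7480.4 CPM in FAPs. Of matrix proteases, Mmp2 had 123 ± 36 CPM in satellite cells and 1908 ± 293 CPM in FAPs. The stromelysin Mmp3 had 0.536, 0.181, 7.38 and 0.361 CPM in satellite cells, against 85.2, 55.8, 473 and 43 CPM in FAPs, highest in replicate 3 in both cell types. The 2 members not called were Col15a1 (-1.17 ± 0.49 on the log2 scale), with 214, 144, 24.2 and 242 CPM in FAPs, and the protease inhibitor Timp3 (-0.31 ± 0.19), and both were called lower without the mouse of replicate 3.

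Basement membrane genes were called in both directions: 3 of 18 were higher in satellite cells, 8 lower and 7 neither (median -0.53, and -0.09 under library totals alone). The share called higher was below the 23.1% of all genes, and that called lower above their 24.2%. Higher in satellite cells were Dag1, which encodes the laminin receptor dystroglycan, with 1316, 1824, 903 and 1311 CPM in satellite cells, against 142, 174, 95.3 and 129 CPM in FAPs (log2 difference 3.29 ± 0.11, edgeR adjusted p = 3.46e-06), and the laminin chains Lama5 (5.21 ± 0.59) and Lamb3 (2.18 ± 0.30). The linker Nid1, with 94.1, 141, 52.5 and 63.3 CPM in satellite cells, against 929.5, 762, 489 and 929.8 CPM in FAPs (log2 difference -3.21 ± 0.23, edgeR adjusted p = 3.91e-05), was lower. The main chains of collagen IV, Col4a1, with 367, 359, 287 and 235 CPM in satellite cells, against 423, 231, 242 and 486 CPM in FAPs, and Col4a2 (-0.15 ± 0.25 on the log2 scale), were not called, and nor was Lama2, the laminin chain of the muscle fibre sheath (0.71 ± 0.28). Their libraries overlapped.

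Complement and acute-phase genes were lower in satellite cells in 14 of 14 tested (median -4.66). Beside C3, the alternative pathway protease Cfb had 1.82, 2.43, 4.08 and 0.831 CPM in satellite cells, against 377, 422, 643 and 244 CPM in FAPs (log2 difference -7.61 ± 0.20, edgeR adjusted p = 3.21e-06). Serping1, the inhibitor of the C1 proteases, had 329, 376, 453 and 275 CPM in satellite cells, against 1843, 2365, 4027 and 1644 CPM in FAPs (log2 difference -2.72 ± 0.15, edgeR adjusted p = 1.22e-05). In these genes replicate 3 was the highest FAP library. In the acute-phase genes it stood much further apart. Hp (haptoglobin) had 6.82, 7.07, 357 and 2.49 CPM in satellite cells, against 96.3, 320.3, 7118 and 144 CPM in FAPs (log2 difference -4.84 ± 0.37, edgeR adjusted p = 4.58e-05). Saa3 (serum amyloid A) had 0.143, 0.507, 51.9 and 0.144 CPM in satellite cells, against 36.8, 53.3, 4666 and 34.3 CPM in FAPs (log2 difference -6.90 ± 0.26, edgeR adjusted p = 3.46e-06). Lcn2, a lipocalin that binds bacterial iron chelators, had 0, 0, 6.2 and 0 CPM in satellite cells, against 2.01, 5.29, 239 and 0.785 CPM in FAPs. In every mouse the FAP library was higher than the satellite cell library, yet the groups overlapped, because the satellite cell library of replicate 3 reached the FAP libraries of other mice. Without that mouse all 14 were still called lower (median -4.87).

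**Figure D3:**
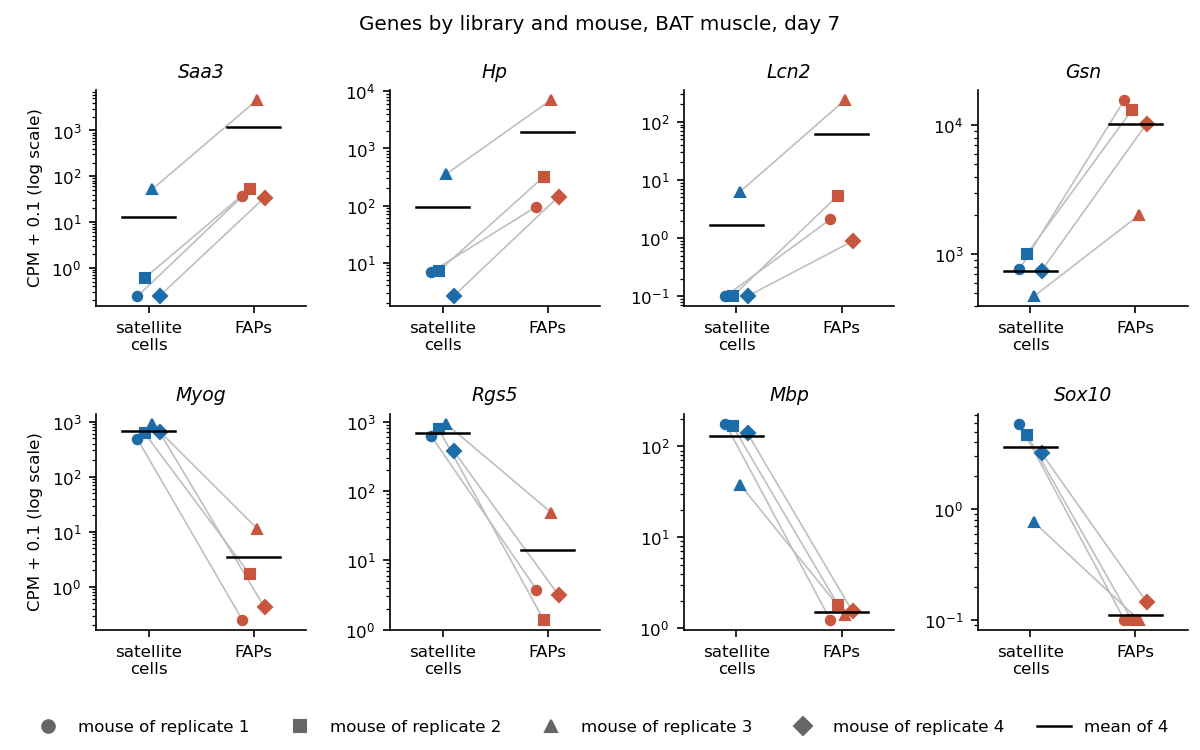
Levels of 8 genes (vertical axes, CPM + 0.1 on log scales) in satellite cells and FAPs of BAT muscle at day 7, 1 symbol per library, with grey lines joining the libraries of a mouse and black bars for the mean of 4. The mouse of replicate 3 (triangles) is highest in both cell types for Saa3, Hp and Lcn2, lowest for Gsn in both, highest among FAPs for Myog and Rgs5, and lowest among satellite cells for Mbp and Sox10.

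Chemokines and cytokines were lower in satellite cells in 18 of 19 tested, and none was higher (median -3.25). Cxcl1, a neutrophil attractant, had 402, 988, 1503 and 236 CPM in satellite cells, against 3009.7, 5096, 8827 and 1903 CPM in FAPs (log2 difference -2.71 ± 0.15, edgeR adjusted p = 1.32e-05). Ccl2, a monocyte attractant, had 190.3, 429.9, 598 and 111 CPM in satellite cells, against 2526, 4240.0, 3068 and 1907 CPM in FAPs (log2 difference -3.38 ± 0.29, edgeR adjusted p = 7.65e-05). The cell types did not overlap, although satellite cells held 111 CPM or more, and within each cell type Cxcl1 was highest in replicate 3 and lowest in replicate 4. Ccl7, another monocyte attractant, had 102 ± 64 CPM in satellite cells and 1673 ± 571 CPM in FAPs (mean ± SD, n = 4 each). Il6, a cytokine with many targets, had 144, 156, 289 and 60.9 CPM in satellite cells, against 287, 366, 1292 and 139.8 CPM in FAPs (log2 difference -1.39 ± 0.20, edgeR adjusted p = 0.000909), with overlap between mice but with the FAP library higher in each of the 4. Il33, an alarmin of stromal cells, had 23.1 ± 8.13 CPM in satellite cells and 498 ± 149 CPM in FAPs. The member not called was Cxcl13, which draws B cells, at no more than 5.55 CPM in any library. Promoters of Cxcl1 and Cxcl2 are shown because the pair lies side by side and varied together over the mice. Cxcl2, the neighbouring neutrophil attractant, had 21.7, 71.8, 140.0 and 11.2 CPM in satellite cells, against 179, 492, 1095 and 134 CPM in FAPs. Capitals mark GGG, any 2 bases and TTTCC in a row on either strand, a form of the site that NF-kB factors are known to bind, in windows from RefSeq (GRCm38.p6) at chr5:90890995-90891294, plus strand, for Cxcl1, and chr5:90903649-90903948, plus strand, for Cxcl2.
Cxcl1: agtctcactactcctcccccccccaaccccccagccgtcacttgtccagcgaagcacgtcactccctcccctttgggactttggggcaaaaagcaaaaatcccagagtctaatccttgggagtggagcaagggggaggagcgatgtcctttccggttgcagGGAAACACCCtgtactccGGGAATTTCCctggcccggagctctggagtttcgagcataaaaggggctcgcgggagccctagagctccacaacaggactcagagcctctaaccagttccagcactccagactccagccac
Cxcl2: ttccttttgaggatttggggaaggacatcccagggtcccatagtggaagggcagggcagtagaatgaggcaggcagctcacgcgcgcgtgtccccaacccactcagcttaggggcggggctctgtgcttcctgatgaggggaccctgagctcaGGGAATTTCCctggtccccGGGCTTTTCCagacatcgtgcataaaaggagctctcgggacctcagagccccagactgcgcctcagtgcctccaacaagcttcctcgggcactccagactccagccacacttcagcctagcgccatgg
The matches began 89 and 71 bases before the start of Cxcl1 and 97 and 78 bases before that of Cxcl2. They were found in 4 of 15 genes of the list with a window and in 1.89% of all genes with one, with 1.94% of the genes called higher and 2.52% of those called lower. No 2 matches overlapped.

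Growth factor receptors were called in both directions as well, with a share called higher below the 23.1% of all genes. Of 18 tested, 3 were called higher in satellite cells, 10 lower and 5 neither (median -0.83), against 5 higher and 7 lower under library totals alone (median -0.38). Fgfr4, the FGF receptor of the myogenic lineage, was higher with 259.8, 355, 236 and 279 CPM in satellite cells, against 0.147, 0, 3.93 and 0.185 CPM in FAPs (log2 difference 8.68 ± 0.94, edgeR adjusted p = 0.000249). Met, the receptor for hepatocyte growth factor, was higher with 38, 41.3, 42.5 and 37 CPM in satellite cells, against 3.14, 4.52, 4.08 and 2.45 CPM in FAPs (log2 difference 3.51 ± 0.17, edgeR adjusted p = 8.26e-06). Erbb3, a neuregulin receptor, was higher with 10.6, 12.5, 4.6 and 7.91 CPM in satellite cells, against 0.588, 0.542, 0.419 and 0.277 CPM in FAPs. None overlapped with FAPs. Fgfr1 had 195, 181, 136 and 199 CPM in satellite cells, against 327, 281, 353 and 344 CPM in FAPs (log2 difference -0.89 ± 0.15, edgeR adjusted p = 0.00189). Pdgfrb, the PDGF receptor shared with pericytes, had 97.8, 229, 59.1 and 44.7 CPM in satellite cells, against 241, 324, 284 and 245 CPM in FAPs (log2 difference -1.63 ± 0.32, edgeR adjusted p = 0.00425). Both were lower in satellite cells with no overlap. Axl, a receptor for Gas6, had 156 ± 43.9 CPM in satellite cells and 480.5 ± 172 CPM in FAPs (mean ± SD, n = 4 each) and was also lower.

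Of 52 ligand and receptor pairs, 8 had a ligand called lower and a receptor called higher in satellite cells, 18 had both called lower, 2 had a higher ligand and a lower receptor, and 1 had both higher. In the rest at least 1 gene was not called or not tested. Over all genes tested, 23.1% were called higher and 24.2% lower. Most ligands of the pairs were called lower, and whether 8 exceeds what the single calls give was not tested. The 8 were Hgf with Met, Fgf2 with Fgfr4, Cxcl12 with Cxcr4, Jag1 with Notch3, Mstn with Acvr2b, Nrg1 with Erbb3, Col5a1 with Calcr and Ptn with Ptprz1. Jag1 lost its call in several of the other fits, as given with the Notch genes. Hgf, which activates satellite cells, had 2, 3.88, 2.89 and 2.28 CPM in satellite cells, against 19.3, 26.8, 47.6 and 17.4 CPM in FAPs (log2 difference -3.26 ± 0.24, edgeR adjusted p = 4.29e-05). Cxcl12, a chemokine that draws Cxcr4 cells, had 64.8, 53.8, 87.7 and 36.1 CPM in satellite cells, against 550.2, 1109, 3421 and 508 CPM in FAPs (log2 difference -4.14 ± 0.35, edgeR adjusted p = 8.09e-05), highest in the FAP library of replicate 3. Its receptor Cxcr4 had 23.5, 50.5, 23.8 and 31.6 CPM in satellite cells, against 0.49, 0.452, 0.785 and 0.231 CPM in FAPs (log2 difference 6.01 ± 0.36, edgeR adjusted p = 1.87e-05). FAP and satellite cell libraries were separate for all 3. Mstn, the growth inhibitor myostatin, had 2.39, 0.616, 1.08 and 1.08 CPM in satellite cells, against 47.8, 14.7, 1.36 and 24.2 CPM in FAPs (log2 difference -3.65 ± 0.68, edgeR adjusted p = 0.00355), where replicate 3 of the FAPs overlapped with satellite cells. The 2 pairs in the opposite orientation were Pdgfa with Pdgfra and Bdnf with Ntrk2. Pdgfa had 133, 148, 129 and 114 CPM in satellite cells, against 46.6, 113, 80.7 and 63.9 CPM in FAPs (log2 difference 0.85 ± 0.18, edgeR adjusted p = 0.00643). Bdnf, a neurotrophin, had 40.3, 42, 42 and 30.2 CPM in satellite cells, against 17.1, 25.6, 26.7 and 16.4 CPM in FAPs (log2 difference 0.87 ± 0.14, edgeR adjusted p = 0.00186). Dll1 with Notch1 was the pair with both higher. These are transcript levels of sorted cells, and no binding or signal was measured.

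In the TGF-beta and BMP pathway 4 of 29 genes were called higher in satellite cells and 17 lower (median -0.78). The counts were 7 higher and 13 lower under library totals alone (median -0.33). The Id genes, which are targets of BMPs and hold back differentiation factors, were in part higher in satellite cells. Id1 had 611, 715, 363 and 667 CPM in satellite cells, against 171, 107, 48.8 and 163 CPM in FAPs (log2 difference 2.38 ± 0.20, edgeR adjusted p = 8.06e-05). Id2 had 522, 771, 414 and 662 CPM in satellite cells, against 426, 323, 229 and 401 CPM in FAPs (log2 difference 0.78 ± 0.16, edgeR adjusted p = 0.00583). Id1 did not overlap and Id2 did, and Id3, with 1632, 3666, 989.5 and 1905 CPM in satellite cells, against 1489, 1819, 1022 and 1270.1 CPM in FAPs, was not called. Of the ligands, Bmp4 (0.89 ± 0.29) and Bmp6 (1.68 ± 0.22) were higher, while Inhba, the activin A subunit, was lower, with 27.8, 84.1, 30.4 and 16.6 CPM in satellite cells, against 264, 588, 462 and 247 CPM in FAPs (log2 difference -3.47 ± 0.22, edgeR adjusted p = 2.29e-05). Lower as well were the secreted modulator Fstl1, with 713 ± 95 CPM in satellite cells and 6134 ± 790.2 CPM in FAPs (mean ± SD, n = 4 each), the activin antagonist Fst (-2.54 ± 0.25) and the receptors Tgfbr1 (-0.58 ± 0.12) and Tgfbr2 (-1.87 ± 0.14).

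In the Wnt pathway 18 of 24 members were called lower in satellite cells and 2 higher (median -2.91). The 18 include the secreted inhibitors Sfrp1, Sfrp2, Sfrp4, Dkk2, Dkk3 and Wif1. Sfrp2 had 2.43, 0.797, 2.16 and 0.903 CPM in satellite cells, against 105, 143, 186 and 163 CPM in FAPs (log2 difference -6.61 ± 0.37, edgeR adjusted p = 1.43e-05), Sfrp4 8.28 ± 4.94 CPM in satellite cells and 215 ± 46 CPM in FAPs, and Dkk3 20.02 ± 8.08 CPM in satellite cells and 256 ± 69.7 CPM in FAPs (mean ± SD, n = 4 each). Wnt5a, a ligand of the noncanonical branch, was lower (-3.94 ± 0.25). Wnt4 was higher (2.72 ± 0.47), though at no more than 3.84 CPM, and so was the receptor Fzd4, with 94.1, 76.4, 74.5 and 74.9 CPM in satellite cells, against 45.9, 54.4, 46.6 and 55.1 CPM in FAPs (log2 difference 0.66 ± 0.13, edgeR adjusted p = 0.00481).

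Of 13 IGF genes, 7 were called lower and 2 higher (median -1.34), and 1 higher with no replicate block. Over all genes, 24.2% were called lower and 23.1% higher. Igf1, a growth factor for muscle, had 153, 78.9, 90.6 and 121 CPM in satellite cells, against 929, 632, 665 and 928 CPM in FAPs (log2 difference -2.85 ± 0.12, edgeR adjusted p = 5.52e-06), without overlap, and its binding protein Igfbp4 had 47 ± 19.3 CPM in satellite cells and 652 ± 125 CPM in FAPs. Igfbp6 had 28.6, 52.8, 8.39 and 29.7 CPM in satellite cells, against 859, 806, 165 and 755 CPM in FAPs (log2 difference -4.45 ± 0.19, edgeR adjusted p = 5.52e-06). On the satellite cell side, Igfbp3 was higher with 54.6, 52.2, 60.3 and 66.8 CPM in satellite cells, against 23.7, 15.8, 7.02 and 24.1 CPM in FAPs (log2 difference 1.84 ± 0.29, edgeR adjusted p = 0.00164). Igfbp5 was called as well, with 357, 618, 195 and 357 CPM in satellite cells, against 301, 348, 46.7 and 239.9 CPM in FAPs (log2 difference 0.91 ± 0.27, edgeR adjusted p = 0.0277). Igfbp5 overlapped.

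Of 17 imprinted genes, many of which control growth, 3 were called higher and 8 lower (median -0.11). The share called higher was below the 23.1% of all genes, and that called lower above their 24.2%. The median was 0.34 under library totals alone, with 5 higher, and -0.50 without the mouse of replicate 3. With no replicate block 1 was called higher. H19, the noncoding partner of Igf2, had 203, 206, 286 and 314 CPM in satellite cells, against 836, 903, 723 and 1202 CPM in FAPs (log2 difference -1.86 ± 0.16, edgeR adjusted p = 7.55e-05). Igf2 itself had 348, 446, 326 and 336 CPM in satellite cells, against 408, 224, 92.5 and 528 CPM in FAPs and was not called. Meg3, a noncoding RNA of the Dlk1 locus, had 436, 216, 292 and 373 CPM in satellite cells, against 1798, 529.8, 1582 and 1338 CPM in FAPs (log2 difference -1.91 ± 0.19, edgeR adjusted p = 0.000162). On the satellite cell side were Peg3, a zinc finger protein of muscle stem cells, with 552, 544, 336 and 548 CPM in satellite cells, against 210.5, 89.7, 73.1 and 285 CPM in FAPs (log2 difference 1.78 ± 0.27, edgeR adjusted p = 0.00127), beside the cell cycle inhibitor Cdkn1c (1.18 ± 0.36) and Zim1 (1.22 ± 0.37). Mest had 1294, 929, 1325 and 1338 CPM in satellite cells, against 1669.7, 1294, 395 and 2084 CPM in FAPs. It was not called, and its value of 0.03 ± 0.38 became -0.50 without the mouse of replicate 3, at which it was called lower.

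Of 15 retinoic acid genes 9 were called lower and 1 higher (median -1.44). Dhrs3, which reduces retinal, had 41.4, 70.9, 20.6 and 31.3 CPM in satellite cells, against 189.9, 372, 188 and 242 CPM in FAPs (log2 difference -2.68 ± 0.19, edgeR adjusted p = 3.57e-05). The synthesising enzyme Aldh1a2 had 1.07, 0.797, 0.697 and 0.723 CPM in satellite cells, against 33.6, 43.3, 124 and 45.5 CPM in FAPs (log2 difference -6.03 ± 0.39, edgeR adjusted p = 2.45e-05). The member on the other side was the retinol dehydrogenase Rdh5, with 59.6, 79.4, 40.7 and 65.2 CPM in satellite cells, against 12.4, 10.8, 10.2 and 9.79 CPM in FAPs (log2 difference 2.47 ± 0.18, edgeR adjusted p = 3.88e-05). None of these overlapped.

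Position genes differed by cluster. Hox genes record the place along the body axis at which a cell arose. Of 24 Hox and limb genes tested 6 were called higher in satellite cells, 10 lower and 8 neither (median -1.62). The share called higher was near the 23.1% of all genes, of which 24.2% were called lower. The 6 were Hoxa4, Hoxa6, Hoxa7, Hoxa9, Hoxa10 and Tbx4. Hoxa9 had 29.4, 20.04, 24.8 and 23.2 CPM in satellite cells, against 0.588, 1.26, 0.209 and 0.554 CPM in FAPs (log2 difference 5.25 ± 0.40, edgeR adjusted p = 4.87e-05). Hoxa7 had 27.4, 28.4, 23.5 and 32.7 CPM in satellite cells, against 7.65, 8.13, 2.98 and 5.59 CPM in FAPs (log2 difference 2.27 ± 0.23, edgeR adjusted p = 0.000181). Hoxa10 had 18.8, 15.7, 19.6 and 19.3 CPM in satellite cells, against 1.42, 1.22, 0 and 0.0462 CPM in FAPs. The 10 called lower were 4 genes of the Hoxb cluster, 4 of the Hoxc cluster, Hoxd8 and Tbx5. Hoxb5 had 1, 1.12, 0.592 and 0.506 CPM in satellite cells, against 13.3, 15.1, 8.17 and 9.55 CPM in FAPs (log2 difference -3.86 ± 0.22, edgeR adjusted p = 1.64e-05). Hoxd8 had 0.678, 0.87, 0.313 and 0.723 CPM in satellite cells, against 10.2, 7.5, 7.59 and 9.42 CPM in FAPs (log2 difference -3.78 ± 0.31, edgeR adjusted p = 6.14e-05). Groups were separate for all 5. The limb T-box genes went apart: Tbx4, best known from the hindlimb, had 15.8, 25.9, 13.5 and 20.3 CPM in satellite cells, against 0.441, 0.723, 0.262 and 0.0923 CPM in FAPs (log2 difference 5.67 ± 0.37, edgeR adjusted p = 2.51e-05). Tbx5, best known from the forelimb, had 0.393, 0.725, 0.313 and 0.253 CPM in satellite cells, against 8.29, 12.2, 5.97 and 8.68 CPM in FAPs (log2 difference -4.41 ± 0.28, edgeR adjusted p = 2.49e-05).

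Transcription factors of mesenchyme were lower in satellite cells in 18 of 25 tested and higher in 2 (median -1.23), and lower in 14 under library totals alone (median -0.79). Prrx1, a limb mesenchyme factor, had 85.5, 83.3, 110.1 and 66.3 CPM in satellite cells, against 202, 217, 209.9 and 172 CPM in FAPs (log2 difference -1.23 ± 0.12, edgeR adjusted p = 0.000156). Meox1 had 6.18, 7.17, 1.74 and 7.52 CPM in satellite cells, against 141, 160.5, 69.1 and 183 CPM in FAPs (log2 difference -4.70 ± 0.18, edgeR adjusted p = 3.46e-06). The 2 called higher were Zeb2 and Snai2, both repressors of epithelial genes. Zeb2 had 157, 141, 144 and 126 CPM in satellite cells, against 85, 101, 101 and 70.8 CPM in FAPs (log2 difference 0.68 ± 0.12, edgeR adjusted p = 0.00274). Snai2 had 87.5, 123, 104 and 97.2 CPM in satellite cells, against 65.1, 96.2, 64.8 and 61.7 CPM in FAPs (log2 difference 0.53 ± 0.11, edgeR adjusted p = 0.00601) and overlapped. Nfib was called lower with 166 ± 23.2 CPM in satellite cells and 221 ± 56 CPM in FAPs and stood at 0.0558 under library totals alone, while its paralogue Nfia, with 295 ± 33.2 CPM in satellite cells and 359 ± 84.2 CPM in FAPs, and Tcf4, with 259.6 ± 36.9 CPM in satellite cells and 295 ± 68.6 CPM in FAPs (mean ± SD, n = 4 each), were not called.

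Of 40 cell cycle genes, 39 were called higher in satellite cells (median 2.08). Top2a, the topoisomerase of dividing cells, had 289.9, 328, 411 and 240.5 CPM in satellite cells, against 32, 49.8, 99.2 and 24.3 CPM in FAPs (log2 difference 2.81 ± 0.22, edgeR adjusted p = 5.34e-05). The nucleotide reductase subunit Rrm2 had 218, 288, 348 and 249 CPM in satellite cells, against 30.6, 32.4, 83.4 and 24.6 CPM in FAPs (log2 difference 2.84 ± 0.22, edgeR adjusted p = 4.97e-05). Cdk1, the kinase that starts mitosis, had 135, 124, 212 and 142 CPM in satellite cells, against 27.3, 23.7, 63.4 and 22.2 CPM in FAPs (log2 difference 2.28 ± 0.17, edgeR adjusted p = 4.11e-05). Its partner Ccnb2, cyclin B2, had 92.3, 79.6, 120.2 and 91.8 CPM in satellite cells, against 22.6, 17, 46.4 and 17.5 CPM in FAPs (log2 difference 2.00 ± 0.18, edgeR adjusted p = 0.000102). In these 4 genes replicate 3 was the highest library of each cell type, and no FAP library reached a satellite cell library. E2f1, an activator of replication genes, was the one called lower, with 8.64, 13.2, 13.4 and 9.87 CPM in satellite cells, against 18.3, 22.1, 14.7 and 21.6 CPM in FAPs (log2 difference -0.78 ± 0.20, edgeR adjusted p = 0.0144), and was not called under library totals alone. Inhibitors of the cycle and D cyclins, taken as 1 list, were mixed. Of 16, 8 were called higher and 3 lower, against 23.1% and 24.2% of all genes, and 5 lower without the mouse of replicate 3. The D cyclins Ccnd1, with 73 ± 17.9 CPM in satellite cells and 21.7 ± 7.11 CPM in FAPs, and Ccnd3, with 233 ± 17.8 CPM in satellite cells and 75.3 ± 23 CPM in FAPs, were higher, and Ccnd2, with 70.3 ± 10.1 CPM in satellite cells and 221 ± 27 CPM in FAPs (mean ± SD, n = 4 each), was lower. Btg2, an antiproliferative gene, was lower (-0.82 ± 0.18), and Cdkn1a, the p21 inhibitor, was not called (0.09 ± 0.20).

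Promoters of Cdk1 and Ccnb2 are shown because 39 of 40 cell cycle genes were higher together, and genes of mitosis are known to carry the cell cycle element TTTGAA (CHR) and CCAAT boxes. Capitals mark both motifs on either strand, so that ATTGG is CCAAT read on the other strand. The RefSeq windows (GRCm38.p6) lie at chr10:69352863-69353162, minus strand, for Cdk1, and chr9:70421505-70421804, minus strand, for Ccnb2.
Cdk1: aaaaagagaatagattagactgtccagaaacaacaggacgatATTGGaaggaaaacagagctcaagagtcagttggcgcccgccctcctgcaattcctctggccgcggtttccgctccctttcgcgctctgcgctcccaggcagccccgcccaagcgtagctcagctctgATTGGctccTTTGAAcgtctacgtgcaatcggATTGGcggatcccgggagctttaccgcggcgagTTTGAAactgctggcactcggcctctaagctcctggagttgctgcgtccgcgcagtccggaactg
Ccnb2: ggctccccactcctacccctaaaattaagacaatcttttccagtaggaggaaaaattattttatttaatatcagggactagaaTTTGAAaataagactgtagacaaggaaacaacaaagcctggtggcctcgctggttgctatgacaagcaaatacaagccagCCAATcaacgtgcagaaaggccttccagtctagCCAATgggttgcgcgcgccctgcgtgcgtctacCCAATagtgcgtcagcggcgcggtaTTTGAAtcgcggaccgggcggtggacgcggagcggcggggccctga
In Cdk1, TTTGAA began 71 and 15 bases before the start, and CCAAT was found 3 times, beginning 208, 80 and 48 bases before it. In Ccnb2, TTTGAA began 167 bases before and 5 bases after the start, with CCAAT at 87, 54 and 21 bases before it. No 2 matches overlapped. Of the 34 cell cycle genes with a window, 16 (47.1%) held TTTGAA and 26 (76.5%) held CCAAT, against 20.2% and 41.1% of all genes with a window. Over the whole table TTTGAA was in 17.4% of the genes called higher and 13.4% of those called lower, and CCAAT in 44.8% and 39.9%.

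**Figure D4:**
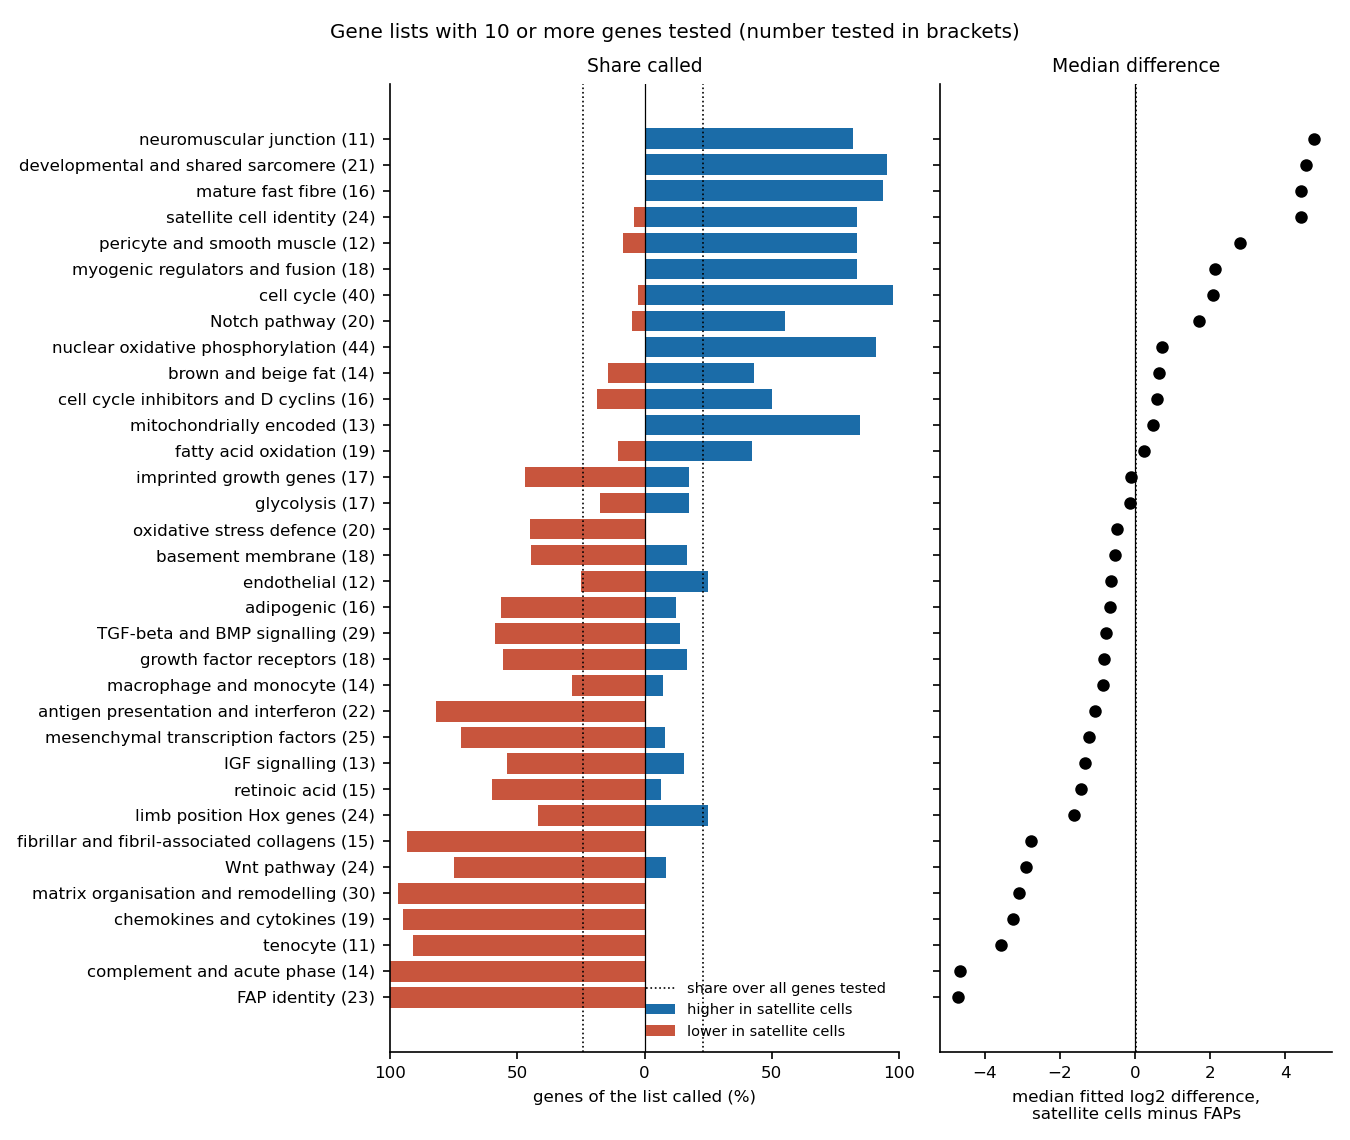
Left, percentage of the tested genes of each list called higher (blue, to the right) or lower (red, to the left) in satellite cells than in FAPs, with dotted lines at 23.1% and 24.2%, the shares over all genes. Right, median fitted log2 difference of each list. Muscle, cell cycle and mitochondrial lists lie on the satellite cell side, and FAP identity, complement, matrix and chemokine lists on the FAP side.

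Mitochondrial genes were higher in satellite cells by small amounts. Of 44 nuclear genes of oxidative phosphorylation 40 were called higher and none lower (median 0.72), and of 13 mitochondrially encoded genes 11 were called higher (median 0.48). With no replicate block 5 of the 13 were called, and without the mouse of replicate 3 there were 9. The medians were 1.16 and 0.92 under library totals alone. Atp5b, a catalytic subunit of ATP synthase, had 1099.9, 942, 1222 and 937 CPM in satellite cells, against 457, 687, 464 and 406 CPM in FAPs (log2 difference 1.08 ± 0.17, edgeR adjusted p = 0.00157). Cox4i1, a cytochrome oxidase subunit, had 721, 771, 778 and 917 CPM in satellite cells, against 513, 552, 584 and 519 CPM in FAPs (log2 difference 0.55 ± 0.12, edgeR adjusted p = 0.0063). Both were separate in all libraries. The mitochondrial mt-Co3 had 6368, 6854, 7070.4 and 6767 CPM in satellite cells, against 4768, 6616, 5182 and 4354 CPM in FAPs (log2 difference 0.39 ± 0.13, edgeR adjusted p = 0.0436), with replicate 2 of the FAPs within the range of satellite cells. Mitochondrially encoded transcripts made up 3.97% to 4.84% of counts in satellite cells and 2.23% to 2.68% in FAPs. Of 19 genes of fatty acid oxidation 8 were called higher and 2 lower (median 0.23). Under library totals alone 13 were called higher and none lower (median 0.67), and with no replicate block 5 higher. Acadl, a dehydrogenase of long chains, was higher (1.00 ± 0.12), while Acadvl (-0.45 ± 0.13) and the carnitine transferase Cpt2 (-0.65 ± 0.14) were lower.

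Glycolysis genes were balanced, with 3 of 17 called higher, 3 lower and 11 neither (median -0.14). Both shares were below those of all genes (23.1% and 24.2%). Under library totals alone 7 were called higher (median 0.30), and without the mouse of replicate 3 the median was -0.07. Higher were Gapdh, with 95.6 ± 15.6 CPM in satellite cells and 41.7 ± 9.07 CPM in FAPs, Pgk1 (0.76 ± 0.13) and Ldhb (1.35 ± 0.15). Lower were the hexokinase Hk2, with 32.6, 70.8, 29.3 and 22.2 CPM in satellite cells, against 227, 259, 168 and 105 CPM in FAPs (log2 difference -2.36 ± 0.17, edgeR adjusted p = 3.75e-05), the glucose transporter Slc2a1 (-1.89 ± 0.26) and the lactate exporter Slc16a3 (-2.52 ± 0.18). Pkm, the last enzyme of the pathway, had 1185 ± 207 CPM in satellite cells and 1094 ± 378 CPM in FAPs (mean ± SD, n = 4 each) and was not called.

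Interferon and antigen presentation genes were called lower in satellite cells in 18 of 22 tested and higher in none (median -1.07). H2-D1, a class I histocompatibility gene, had 775, 1100.0, 932 and 599.8 CPM in satellite cells, against 2774, 2733, 913 and 2158 CPM in FAPs (log2 difference -1.26 ± 0.31, edgeR adjusted p = 0.012). B2m, the light chain of class I molecules, had 554, 693, 823 and 478 CPM in satellite cells, against 1269, 1128, 819.6 and 984 CPM in FAPs (log2 difference -0.74 ± 0.20, edgeR adjusted p = 0.0183). In both the FAP library of replicate 3 was at the level of satellite cells, and reads of near-identical H2 genes may have been divided between them. Ifitm3, an antiviral membrane protein, had 436, 676, 490.1 and 430.0 CPM in satellite cells, against 1163, 1404, 1205 and 966 CPM in FAPs (log2 difference -1.23 ± 0.11, edgeR adjusted p = 0.000119). It did not overlap. Under library totals alone 10 were called lower (median -0.63). Of 20 genes of oxidative stress defence 9 were called lower and none higher (median -0.48). Under library totals alone 7 were lower and 4 higher (median -0.04), and upper quartile scaling called 1 higher. The extracellular dismutase Sod3 had 36, 34.4, 17.7 and 21.8 CPM in satellite cells, against 589.8, 1155, 867 and 379 CPM in FAPs (log2 difference -4.71 ± 0.30, edgeR adjusted p = 2.51e-05), Gpx3, a secreted peroxidase, had 1918 ± 349.7 CPM in satellite cells and 4425 ± 2040.2 CPM in FAPs, and the metallothionein Mt1 had 451 ± 127 CPM in satellite cells and 1532 ± 651 CPM in FAPs (mean ± SD, n = 4 each).

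Markers of other cell types that the gates could hold were measured as well. Transcripts of pericytes and smooth muscle, which wrap small vessels, were on the satellite cell side: 10 of 12 were called higher and 1, Pdgfrb, lower (median 2.79), and 2 lower without the mouse of replicate 3. Rgs5, a defining pericyte gene, had 615, 781, 933 and 378 CPM in satellite cells, against 3.68, 1.26, 48.8 and 3.05 CPM in FAPs (log2 difference 6.85 ± 0.80, edgeR adjusted p = 0.000365). Myh11, the smooth muscle myosin, had 169, 185, 71.6 and 69 CPM in satellite cells, against 0.343, 0.136, 4.56 and 0.369 CPM in FAPs (log2 difference 6.95 ± 0.91, edgeR adjusted p = 0.000626). Acta2, smooth muscle actin, had 1309, 1340.1, 1104 and 1089 CPM in satellite cells, against 145, 240.2, 336 and 166 CPM in FAPs (log2 difference 2.52 ± 0.23, edgeR adjusted p = 0.000112). No FAP library reached a satellite cell library in these genes. The list shares Notch3 and Des with muscle lists, so that their values belong to both.

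Of Schwann and glial genes 5 of 8 were called higher and 1 lower (median 2.12). Their summed levels overlapped, at 501 to 894 CPM in satellite cells and 482.5 to 673 CPM in FAPs. The largest part of both sums was Pmp22, with 410.5 ± 79.4 CPM in satellite cells and 401 ± 52.2 CPM in FAPs (mean ± SD), which was not called. Mbp, a myelin protein, had 177, 166, 37.9 and 139 CPM in satellite cells, against 1.13, 1.72, 1.31 and 1.43 CPM in FAPs (log2 difference 6.39 ± 0.37, edgeR adjusted p = 1.56e-05). Sox10, the glial lineage factor, had 5.79, 4.6, 0.662 and 3.11 CPM in satellite cells, against 0, 0, 0 and 0.0462 CPM in FAPs. In satellite cells both were lowest in replicate 3. Egr2, which drives myelin genes and is also an immediate-early gene, was the one called lower (-0.55 ± 0.11). It was not called under library totals alone or with no replicate block, and without the mouse of replicate 3 there were 2 called lower. Tendon cell genes lay on the FAP side, lower in satellite cells in 10 of 11 (median -3.57), with Cilp at 127, 159.5, 22.2 and 122 CPM in satellite cells, against 3211, 4239.6, 762 and 3088 CPM in FAPs (log2 difference -4.79 ± 0.14, edgeR adjusted p = 3.46e-06). The defining factor Scx had 5.29, 3.15, 5.15 and 5.78 CPM in satellite cells, against 4.26, 1.54, 0.576 and 4.8 CPM in FAPs and was not called. The part that any such cells have in the differences of muscle and FAP genes was not tested.

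Macrophage and monocyte genes were low. Of 14 tested 4 were called lower and 1 higher (2 lower with no replicate block), against 24.2% lower and 23.1% higher over all genes. A further 8 did not pass the filter on low counts, among them the defining Spi1, C1qa and Aif1. Lyz2 had 1.96, 3.26, 23 and 4.52 CPM in satellite cells, against 8.58, 7.09, 23.2 and 8.86 CPM in FAPs (log2 difference -1.02 ± 0.32, edgeR adjusted p = 0.0324), highest in replicate 3 in both cell types. Cd14, which FAPs also make, had 3.64, 4.2, 13.8 and 1.84 CPM in satellite cells, against 8.04, 18.6, 70.1 and 7.16 CPM in FAPs (log2 difference -1.91 ± 0.22, edgeR adjusted p = 0.000349). Cd163, a macrophage scavenger receptor, was the one called higher, with 3.75, 2.5, 2.51 and 2.71 CPM in satellite cells, against 0, 0, 0 and 0.185 CPM in FAPs. Of endothelial genes 3 of 12 were called higher and 3 lower, near the shares over all genes. Among those higher was the junction protein Esam, with 29.96, 58.5, 21 and 20.4 CPM in satellite cells, against 2.06, 3.07, 2.57 and 0.554 CPM in FAPs (edgeR adjusted p = 5.79e-05). The defining Pecam1 was at no more than 3.40 CPM in any library. Alpha and beta globins, whose copies share reads, were at 1.38 to 26.3 CPM in satellite cells and 0.508 to 14.9 CPM in FAPs, with 3 of 5 erythroid genes called higher and 1 without the mouse of replicate 3.

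Fat genes were measured because the graft is fat. Ucp1 and Cidea, the defining genes of brown fat cells, did not pass the filter on low counts, and Adipoq, the fat cell hormone adiponectin, had 0.107, 0, 0 and 0 CPM in satellite cells, against 3.38, 1.85, 0.471 and 0.831 CPM in FAPs. Of 16 adipogenic genes 9 were called lower in satellite cells and 2 higher (median -0.66). The median was -0.22 under library totals alone, and 1 was called higher with no replicate block. The lipoprotein lipase gene Lpl had 79.3, 77.6, 53.4 and 62.2 CPM in satellite cells, against 566, 311, 214 and 612 CPM in FAPs (log2 difference -2.53 ± 0.24, edgeR adjusted p = 0.000133). Apod, a lipid carrier of fibroblasts, had 70.02, 81.8, 34.3 and 68.4 CPM in satellite cells, against 884, 979.7, 175 and 894 CPM in FAPs (log2 difference -3.33 ± 0.25, edgeR adjusted p = 4.54e-05). Neither overlapped. The fatty acid transporter Cd36 was higher, with 20.7, 15.1, 29 and 13.5 CPM in satellite cells, against 9.17, 3.52, 2.15 and 1.2 CPM in FAPs (log2 difference 2.56 ± 0.43, edgeR adjusted p = 0.00226). Of 14 brown and beige fat genes 6 were called higher and 2 lower (median 0.65, and 1.09 under library totals alone). The 2 lower were Ebf2, a factor of brown fat precursors and of FAPs, with 27.9, 33.1, 17.9 and 11.9 CPM in satellite cells, against 153, 123, 78.7 and 116 CPM in FAPs (log2 difference -2.44 ± 0.23, edgeR adjusted p = 0.000123), and Tmem26 (-2.64 ± 0.21). The 6 higher, which include the muscle subunits Cox7a1 (3.93 ± 0.45) and Cox8b (3.73 ± 0.40), were at no more than 13.3 CPM in any library.

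Some of the genes with the most counts did not differ detectably. Actb, beta actin, had 7569 ± 2396 CPM in satellite cells and 8474 ± 2302 CPM in FAPs (log2 difference -0.18 ± 0.13), Eef1a1, the translation elongation factor, 8254 ± 1095 CPM in satellite cells and 6948 ± 869.5 CPM in FAPs (0.25 ± 0.11), and the ubiquitin gene Ubb 9097 ± 1142 CPM in satellite cells and 10073 ± 1710.5 CPM in FAPs (-0.14 ± 0.16, mean ± SD, n = 4 each). The mitochondrial ribosomal RNA mt-Rnr2, the heat shock gene Hspa1a and the pseudogene Gm15459 complete the 6 with the highest CPM that were not called and lay within 0.25 of 0. Reads of Hspa1a and Gm15459 may be shared with near-identical genes.

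The same comparison in control muscle of these mice was set beside that in BAT muscle. There, 3962 of 18559 genes tested were called higher in satellite cells and 4022 lower, 43.0% in all. The difference between BAT and control muscle in the satellite cell minus FAP difference was tested in the 16 libraries of day 7, and 0 of 19207 genes (0%) passed with edgeR after adjustment. At an unadjusted p under 0.05 there were 433 genes (2.25%) with a larger and 811 (4.22%) with a smaller value in BAT muscle, 6.48% in all, and DESeq2 called 0 and 1. The smallest p was that of Ibsp, a bone sialoprotein, with 23.6, 0, 0 and 0.405 CPM in satellite cells and 0.244, 0.182, 0.263 and 2.48 CPM in FAPs of BAT muscle, against 0.0849, 0, 0 and 0 CPM in satellite cells and 4.78, 0.13, 0.973 and 6.24 CPM in FAPs of control muscle (interaction 9.77 ± 1.21, edgeR adjusted p = 0.153). It rests on the satellite cell library of replicate 1, and with counts of 0 in 5 satellite cell libraries the fitted value depends on the prior count. Ak1, a muscle adenylate kinase, had 61, 120.5, 48.3 and 121 CPM in satellite cells and 117, 184, 149.6 and 96.5 CPM in FAPs of BAT muscle, against 86.2, 206, 84.5 and 191 CPM in satellite cells and 93.7, 207, 136 and 82.1 CPM in FAPs of control muscle (interaction -0.81 ± 0.14, edgeR adjusted p = 0.692). In satellite cells the control library was higher in each of the 4 mice. The next genes by p were Ccl8, Htra1, Gm47138, Ly6c1 and Dpy30 with positive values and Ddx11, Loxl3, Ankrd23, Frmpd1 and Tnfrsf1b with negative ones, at an adjusted p of 0.69 each.

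The median interaction of the cell cycle list was -0.16 with 7 of 40 values above 0, that of the mature fast fibre list -0.47 with 3 of 16, and that of FAP identity 0.10 with 18 of 23. The median of all 19207 genes was -0.006. Genes of a list can vary together in the same libraries, so such counts are no test of the treatment. Mitochondrially encoded genes had 13 of 13 values above 0 (median 0.26), 2 of them at an unadjusted p under 0.05. Of these genes 11 were called in BAT muscle and 0 in control muscle, yet the difference between the muscles passed the adjusted test for none. All 5 erythroid genes had a positive value at an unadjusted p under 0.05 (median 1.83), against 2.25% of all genes. The muscles of a mouse share that mouse, and this fit did not link its satellite cells to its FAPs.

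Between day 7 and day 3 the difference between the cell types changed for many genes, although days come from different mice and different tables, so that day cannot be told apart from either. With mouse as a block in the 16 libraries of BAT muscle, 1993 of 19257 genes (10.3%) had a larger satellite cell minus FAP difference at day 7 than at day 3 and 1112 (5.77%) a smaller one, 16.1% in all (edgeR, adjusted p under 0.05, median of all genes 0.08). Without the mouse block they were 1053 and 582. The counts were 1114 and 701 without the mouse of day 7 replicate 1, 1267 and 635 without that of day 3 replicate 1, and 1143 higher without that of day 3 replicate 3. Day 3 replicates are numbered here by the satellite cell library, and 2 day 3 libraries with no mouse code were taken as the same mouse. Levels in this comparison are CPM scaled over the 16 libraries, and at day 3 a position does not mark a mouse. The macrophage gene Lyz2 had 1.94, 3.22, 22.2 and 4.39 CPM in satellite cells and 8.04, 6.7, 22.5 and 8.46 CPM in FAPs at day 7, against 37.6, 97.2, 2.48 and 1017 CPM in satellite cells and 2732, 28.2, 59.8 and 3.68 CPM in FAPs at day 3, and the highest value of each day 3 group is from one mouse. Without that mouse, day 3 replicate 4, the counts were 2053 and 1182.

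Genes with a larger difference at day 7 included some that were low in satellite cells at day 3. Rcan2, an inhibitor of calcineurin, had 57.2, 36.3, 23.3 and 37.4 CPM in satellite cells and 2.62, 3.37, 1.93 and 2.47 CPM in FAPs at day 7, against 4.12, 4.86, 5.34 and 3.01 CPM in satellite cells and 6.51, 5.83, 6.33 and 9.29 CPM in FAPs at day 3 (interaction 4.54 ± 0.28, edgeR adjusted p = 0.000163). Cox4i2, a cytochrome oxidase subunit also typical of pericytes, had 24.7, 39.7, 15.7 and 19.6 CPM in satellite cells and 1.84, 2.13, 1.57 and 2.91 CPM in FAPs at day 7, against 1.73, 1.85, 0.728 and 0.804 CPM in satellite cells and 3.61, 7, 4.66 and 2.77 CPM in FAPs at day 3 (interaction 5.33 ± 0.36, edgeR adjusted p = 0.000163). For both, satellite cells were above FAPs at day 7 and below them at day 3, with no overlap at either day. Ifi27, an interferon-induced gene, had 206, 184, 167 and 192 CPM in satellite cells and 244, 228, 219.7 and 270.3 CPM in FAPs at day 7, against 53.2, 54, 32.1 and 50.3 CPM in satellite cells and 282, 382, 359 and 292 CPM in FAPs at day 3 (interaction 2.45 ± 0.16, edgeR adjusted p = 0.000163), so that a wide gap at day 3 was a narrow one at day 7. Fxyd1 (2.32 ± 0.15), Kcnab1 (4.44 ± 0.33) and the myelin protein gene Pmp22 (2.47 ± 0.18) complete the 6 with the smallest p.

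Genes with a smaller difference at day 7 were led by Ahnak2, Aqp1, Hmga1, Nrn1, Gm26885 and Hmga1b. Hmga1, a chromatin protein of immature and dividing cells, had 39.4, 86.7, 47.7 and 41.4 CPM in satellite cells and 111, 208, 65.4 and 67.5 CPM in FAPs at day 7, against 722, 709, 1123 and 788 CPM in satellite cells and 166, 126, 173 and 138 CPM in FAPs at day 3 (interaction -3.44 ± 0.28, edgeR adjusted p = 0.000307). Satellite cells were far above FAPs at day 3 in every library, and below the FAPs of the same mouse in every mouse at day 7. Hmga1b (-3.34 ± 0.30) is a near-identical copy whose reads may be shared. The water channel Aqp1 had 13.6, 13.7, 7.2 and 7.95 CPM in satellite cells and 81.5, 71.4, 87.9 and 30.5 CPM in FAPs at day 7, against 34.1, 31.3, 41.1 and 37.6 CPM in satellite cells and 15.3, 13.9, 13.7 and 18.4 CPM in FAPs at day 3 (interaction -3.86 ± 0.31, edgeR adjusted p = 0.000265), with satellite cells lower at day 7 and higher at day 3 in every library. Ahnak2, a scaffold protein, had an interaction of -3.04 ± 0.24, Nrn1, a neuritin, of -4.66 ± 0.40, and Gm26885, an antisense gene counted with no stated use of strand, of -2.41 ± 0.21.

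**Figure D5:**
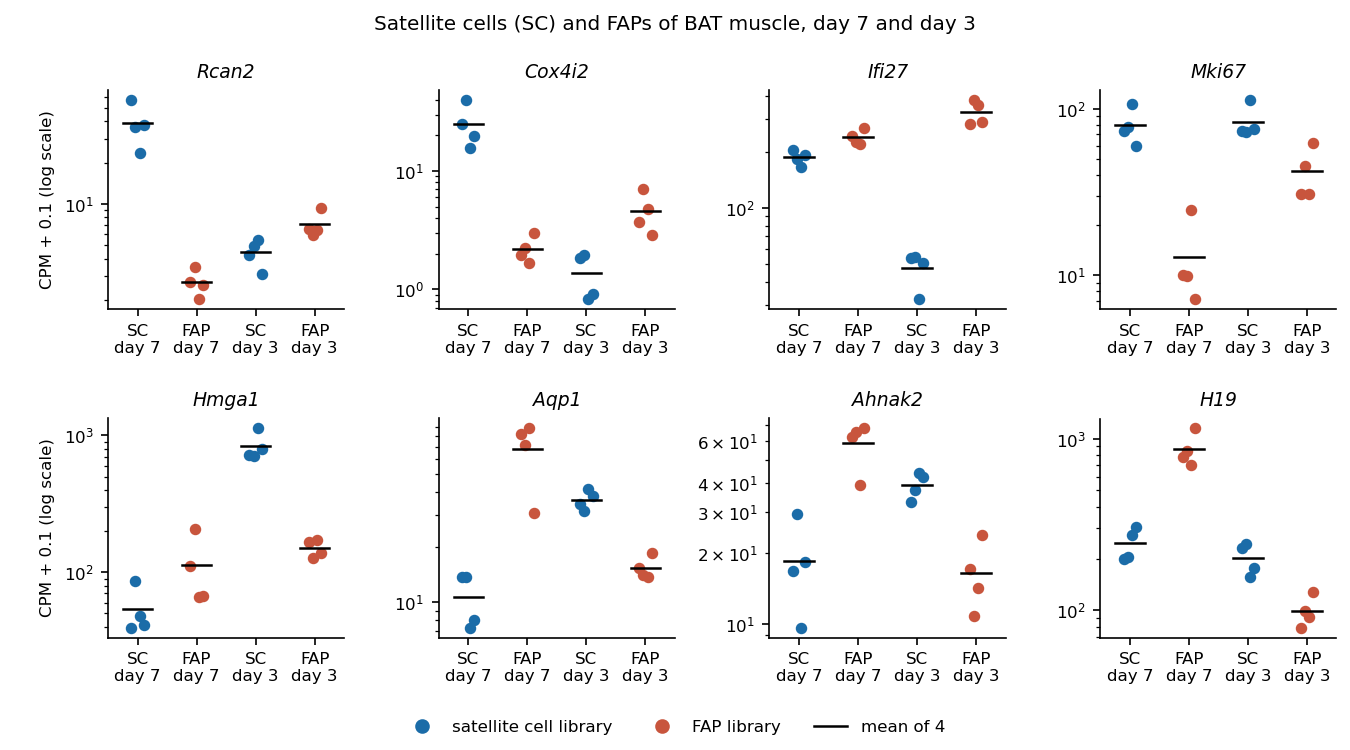
Levels of 8 genes (vertical axes, CPM + 0.1 on log scales) in satellite cells (SC, blue) and FAPs (red) of BAT muscle at day 7 and day 3, 1 point per library, with black bars for the mean of 4. Rcan2 and Cox4i2 are highest in satellite cells at day 7, Hmga1 in satellite cells at day 3, and Mki67 is lowest in FAPs at day 7.

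By list, 15 of 22 interferon and antigen presentation genes had a larger difference at day 7 and none a smaller one (median 1.77), which for most of them means a less negative value. In 24 of 40 cell cycle genes it was larger and in 1 smaller (median 0.88). Mki67, a marker of dividing cells, had 73.2, 76.9, 107 and 59.9 CPM in satellite cells and 9.92, 9.86, 24.5 and 7.09 CPM in FAPs at day 7, against 73, 72.6, 113 and 75.8 CPM in satellite cells and 30.6, 45.1, 30.6 and 62 CPM in FAPs at day 3 (interaction 1.73 ± 0.23, edgeR adjusted p = 0.00161), so that satellite cells had similar values at both days and the FAP values were lower at day 7. In 9 of 12 pericyte and smooth muscle genes (median 2.30) and 4 of 8 Schwann and glial genes (median 2.19) it was larger as well. For Rgs5 satellite cells had 607, 771, 902 and 368 CPM and FAPs 3.44, 1.19, 47.3 and 2.91 CPM at day 7, against 16.2, 22, 9.51 and 2.29 CPM in satellite cells and 1.8, 2.06, 2.23 and 1.51 CPM in FAPs at day 3 (interaction 4.49 ± 1.02, edgeR adjusted p = 0.0161). The part of these cells in the day difference of other genes was not tested.

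In nuclear oxidative phosphorylation the difference was smaller at day 7 in 12 of 44 genes and larger in none (median -0.31). Values of FAP identity genes lay widely on both sides of 0 (median -0.01). The difference was larger, which here means less negative, in 3 of 23 and smaller in none, against 10.3% and 5.77% of all genes. The 3 were Ebf2 (2.51 ± 0.55), Ebf1 (2.41 ± 0.62) and Thy1 (2.24 ± 0.49). The lowest value was that of Clec3b (-3.68 ± 1.23), which did not pass. Of the muscle lists 5 of 24 satellite cell identity genes (median 0.76), 2 of 21 developmental sarcomere genes (median -0.92) and 2 of 16 fast fibre genes (median 0.59) were larger and none smaller. Of 18 regulators 3 were larger and 1, Cdkn1c (-2.35 ± 0.44), was smaller (median 0.17). Calcr had 15.9, 8.73, 10.5 and 22.4 CPM in satellite cells and 0, 0, 0 and 0 CPM in FAPs at day 7, against 1.77, 1.26, 1.84 and 0.847 CPM in satellite cells and 0.157, 0.0404, 0 and 0.0315 CPM in FAPs at day 3. With no count in FAPs at day 7, no fold between days is given for it. H19 had 199.9, 204, 276 and 306 CPM in satellite cells and 784, 852, 700.5 and 1146 CPM in FAPs at day 7, against 232, 244, 156 and 176 CPM in satellite cells and 79.3, 98.9, 91.8 and 128 CPM in FAPs at day 3 (interaction -2.84 ± 0.26, edgeR adjusted p = 0.000387), with FAPs above satellite cells at day 7 and below them at day 3. Igf2 moved with it (-2.24 ± 0.51, edgeR adjusted p = 0.0156), and Meg3 the other way (2.12 ± 0.49, edgeR adjusted p = 0.0167).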

How the data were processed

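RNA sequencing values per gene were deposited as 1 table per day. From the values, the deposited columns hold expected counts (estimated counts that need not be whole, 72.2% whole at day 7). DRAGEN and the mm10 build are named in the submitters' processing notes, with no role or version. The sources used here give neither strand use nor the handling of multi-mapped reads, so values of near-identical or antisense genes are uncertain. Of 55774 entries per table, 287 repeats were dropped, and values were rounded to whole counts, at a change of at most 0.000176% in a library total.

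Samples were grouped by their labels. Satellite cells and FAPs of BAT muscle at day 7 were compared with edgeR 4.0.16 (quasi-likelihood F test, TMM scaling, filterByExpr with a minimum count of 10 and a minimum total of 15, mouse as a block, Benjamini-Hochberg adjusted p under 0.05) in R 4.3.3. SE is the log2 difference over the square root of F. The difference from control muscle was tested as an interaction over 16 libraries with mouse within cell type as a block, and that from day 3 over 16 BAT libraries with mouse as a block. Pairs are of one mouse, per the series text. Alternatives used DESeq2 1.42.0, limma 3.58.1 (voom), other scalings, no filter, no block and mice left out. The fits were tested on simulated data.

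The 38 gene lists, 52 pairs and all other choices were made with earlier results of these data known. Named genes were the 12 largest differences each way among called genes with at least 20 CPM in the higher cell type and no overlap, the markers, the 3 members of each list with the highest mean CPM and those called against their list, pair genes, 6 genes per direction of each interaction by p, and the 6 with the highest CPM not called and within 0.25. Other genes were named after their values were seen, and a few listed genes are not reported here. Promoters are RefSeq windows on GRCm38.p6, found for 11821 of the 18162 genes tested by symbol.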

Additional observations from a re-analysis of the deposited data

Results flagged for a closer look

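In 45 of 377 sets of 4 values, 1 library lay further from the nearest of the other 3 than the 95% critical value of Dixon's ratio allows. A rate of about 1 in 20 holds only for normally distributed values chosen without regard to their spread. Some of these genes were named after their values were seen, so the 45 cannot be set against that rate. The sets are also not independent, because libraries of a mouse recur in them. Most of the 45 fell on the mouse of replicate 3, whose libraries also set themselves apart on the second principal component. Its FAP library was the high one in 17 sets and the low one in 5, and its satellite cell library was the high one in 5 and the low one in 3.

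In its FAP library the acute-phase and matrix genes were at 4666 CPM for Saa3, 7118 CPM for Hp, 239 CPM for Lcn2 and 473 CPM for Mmp3, and the macrophage gene Lyz2 was at 23.2 CPM. Muscle genes stood apart there at 5.60 CPM for Myf5, 11.3 CPM for Myog, 8.12 CPM for Chrna1 and 3.93 CPM for Fgfr4, and vessel wall genes at 48.8 CPM for Rgs5 and 4.56 CPM for Myh11. The same library held 63.4 CPM of Cdk1, 83.4 CPM of Rrm2, 197 CPM of Brinp3, 94.2 CPM of Kcnj15, 124 CPM of Aldh1a2 and 12634 CPM of Ubb. It was lowest for Apod at 175 CPM, Igfbp6 at 165 CPM, Mmp2 at 1470.3 CPM, Ckm at 2.83 CPM and Bmp6 at 1.47 CPM. The satellite cell library of that mouse was highest for Saa3 at 51.9 CPM, Hp at 357 CPM, Lcn2 at 6.20 CPM, Mmp3 at 7.38 CPM and Lyz2 at 23.0 CPM. It was lowest for Peg3 at 336 CPM and Mfap5 at 9.65 CPM, and had 22147 genes with a count, the fewest of the satellite cell libraries.

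Other libraries stood apart in single genes. FAP replicate 2 was high for Jag1 at 145 CPM, Hes1 at 97.0 CPM and Snai2 at 96.2 CPM, and satellite cell replicate 2 was high for Sdc3 at 48.5 CPM and low for Mest at 929 CPM. Satellite cell replicate 1 was high for Fzd4 at 94.1 CPM and Cd163 at 3.75 CPM, satellite cell replicate 4 low for Bdnf at 30.2 CPM, and FAP replicate 4 low for Sfrp4 at 146 CPM and for the mitochondrial share at 2.23%. At day 3, single libraries stood apart for Lyz2 at 1017 CPM in satellite cells and 2732 CPM in FAPs, both of 1 mouse, for Mki67 at 113 CPM and Ifi27 at 32.1 CPM in satellite cells, and for Fxyd1 at 40.5 CPM in FAPs.

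The difference between the cell types differed between day 7 and day 3 by the test of that difference itself (edgeR, adjusted p under 0.05), with 1993 genes larger and 1112 smaller at day 7. Larger values were 5.33 for Cox4i2, 4.54 for Rcan2, 4.49 for Rgs5, 4.44 for Kcnab1, 2.47 for Pmp22, 2.45 for Ifi27, 2.32 for Fxyd1, 2.12 for Meg3 and 1.73 for Mki67 (log2, day 7 minus day 3). Smaller values were -4.66 for Nrn1, -3.86 for Aqp1, -3.44 for Hmga1, -3.34 for Hmga1b, -3.04 for Ahnak2, -2.84 for H19, -2.41 for Gm26885 and -2.24 for Igf2. Days come from different mice and tables, and the part of day was not tested apart from them.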

How the results depend on the processing

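Over the named genes, 2224 of the values recomputed for the difference between the cell types kept their direction and their side of the threshold, 91 were no longer called, 34 became called and 3 changed sign. Those that changed sign were Jag1 at 0.0155 and Nfib at 0.0558 under library totals alone, and Mest at -0.50 without replicate 3 (0.28 at the other end of the range over left-out mice). Counts of genes higher and lower moved to 7477 and 2756 under library totals alone and to 1322 and 1759 when tested against a 2-fold difference (glmTreat), which asks for more than any difference. DESeq2 called 4336 and 4671, and leaving out each mouse in turn gave 2952 to 4191 higher and 3382 to 4534 lower. With no replicate block the counts were 3375 and 3620 of 16624 genes tested. The pairing by mouse comes from the series text and the shared codes, and the deviations of the cell types correlated within a mouse at 0.16 to 0.35, best with the own mouse in 4 of 4.

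For BAT against control muscle, 0 genes passed with edgeR, 0 higher and 1 lower with DESeq2, and 50 higher and 133 lower with no filter on low counts. For day 7 against day 3, DESeq2 called 2267 higher and 1677 lower, and the fit with no replicate block 1053 and 582. Leaving out each mouse in turn gave 1114 to 2180 higher and 635 to 1182 lower. The cause of these shifts was not tested.

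Genes near the floor of 3 counts carry fitted differences that depend on the prior count. With 4 mice per cell type, small differences also rest on the scaling between the cell types, since scaling factors were 1.10 to 1.22 in satellite cells and 0.746 to 0.929 in FAPs. List counts without replicate 3 and under other scalings were added after seeing the data.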
